A study of Homo sapiens with 8 samples.

Results

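SERPINB7 and the other clade B serpins were followed across 8 Affymetrix arrays of RNA from lung cancer cell lines. The family was defined by gene symbol: 10 genes were listed, SERPINB1 to SERPINB10, and a gene was measured where a probe set carries its symbol alone in the array annotation. That held for 8 of the 10 among 18404 genes, and SERPINB2 and SERPINB6 were not analysed here. Each of the 8 is read by 1 probe set, so the choice of the brightest probe set played no part. The family was chosen from its readout, with earlier results of these data known. SERPINB7 had the largest GFP minus LUC difference of all 18404 genes and ranked 3 of them by the size of the difference between PTK7 and control hairpins averaged over the lines. Its values are therefore a description, without a p-value, and counts of calls refer to the other 7 measured members.

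The lines were NCI-H1299 (H1299) and NCI-H2009 (H2009), both grown in RPMI with fetal bovine serum and labelled lung adenocarcinoma. Each was infected for 2 days with lentivirus carrying a short hairpin RNA, kept in puromycin for 2 days and harvested on day 4, so that infection and selection are common to controls and knockdowns. The target was PTK7, a pseudokinase receptor of Wnt and planar cell polarity signalling, with 2 hairpins called PTK7-1 and PTK7-2. The 2 control hairpins were directed at green fluorescent protein (GFP) or at luciferase (LUC). A single array was made for each pairing of hairpin and line, which gives 4 groups of 2 arrays whose members differ in hairpin. The labels do not describe repeated cultures. Errors of the group comparisons therefore hold differences between hairpins together with the spread between these arrays, which may be technical. PTK7 itself ranged from 5.73 to 6.03 (log2) under control hairpins and from 5.53 to 5.63 under PTK7 hairpins in H1299, and from 6.64 to 6.86 and from 5.63 to 5.94 in H2009. Of 6 epithelial markers EPCAM and CDH1 were high in H2009 and dim in H1299, KRT7 and KRT19 were also lower in H1299, KRT8 was lower but bright there (8.68 to 10.38), and KRT18 was bright in both lines (10.56 to 11.61 in H1299) and did not pass between them. Of 5 lung markers NKX2-1, NAPSA and SLC34A2 were lower in H1299 under control hairpins, at -2.83 ± 0.32, -1.23 ± 0.23 and -1.33 ± 0.34 (SE). Only NKX2-1 also passed under PTK7 hairpins. Of all genes, 24.8% passed between the lines under control hairpins and 24.5% under PTK7 hairpins. SFTPB and SFTPC, which mark surfactant-producing lung cells, were dim in both lines.

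Serpins are protease inhibitors that fold into a strained shape and expose a reactive centre loop. A protease that cuts the loop is dragged across the molecule and trapped in an inactive complex. Clade B serpins lack a classical secretion signal and act mainly inside cells, where they guard against the cell's own or incoming proteases, and most are expressed in epithelia or blood cells. Their human genes lie in clusters on chromosome 18 and chromosome 6.

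Upstream sequences of SERPINB7 and SERPINB8 are shown as the windows with 2 matches to TGANTCA. This is a loose form of the AP-1 motif, searched here with any base at N, so not every match is an AP-1 consensus site. They were picked after the matches and the expression values were seen. RefSeq (GRCh38.p14) promoter windows were found for all 5 members with a clear signal, with 3 alternative starts for SERPINB7. The dim members SERPINB3, SERPINB4 and SERPINB10 were not searched. The sequences below are the 250 bases before a start, 5′ to 3′ on the strand of the gene, with matches to the loose form TGANTCA in capitals. They lie at chr18:63775168-63775417 and chr18:63777531-63777780 (starts 2 and 3 of SERPINB7) and at chr18:63969831-63970080 (SERPINB8), all on the plus strand.
SERPINB7 start 2: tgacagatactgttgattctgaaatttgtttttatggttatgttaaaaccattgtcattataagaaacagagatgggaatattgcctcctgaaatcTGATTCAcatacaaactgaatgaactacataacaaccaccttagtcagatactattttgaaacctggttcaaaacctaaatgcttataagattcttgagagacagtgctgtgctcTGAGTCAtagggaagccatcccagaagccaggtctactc
SERPINB7 start 3: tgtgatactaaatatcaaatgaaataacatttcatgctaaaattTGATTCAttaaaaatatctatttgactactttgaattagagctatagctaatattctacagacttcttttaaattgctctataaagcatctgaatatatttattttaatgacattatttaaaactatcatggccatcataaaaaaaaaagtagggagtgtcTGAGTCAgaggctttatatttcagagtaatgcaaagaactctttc
SERPINB8 start 1: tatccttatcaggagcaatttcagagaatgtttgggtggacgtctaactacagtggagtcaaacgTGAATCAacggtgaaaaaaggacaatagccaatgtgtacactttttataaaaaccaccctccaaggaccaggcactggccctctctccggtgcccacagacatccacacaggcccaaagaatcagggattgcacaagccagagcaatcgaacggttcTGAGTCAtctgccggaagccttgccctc

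Each of these windows held the letters TGANTCA 2 times. Before both SERPINB7 starts they read TGATTCA and TGAGTCA, and before SERPINB8 they read TGAATCA and TGAGTCA. In SERPINB7 the matches began 154 and 39 bases before start 2, and 206 and 45 bases before start 3. In SERPINB8 they began 185 and 28 bases before the start. At least 1 match was present in 6.57% and at least 2 in 0.402% of 35116 promoter windows of the same length. These shares hold for any base at N, and matches with a fixed base there were not counted over all windows. SERPINB5 held 1 match, TGAATCA, 146 bases before its start, and start 1 of SERPINB7, SERPINB1 and SERPINB9 held none. Another 9 motifs were searched on both strands, namely CRE (TGACGTCA), NF-kB (GGNNTTTCC), TEAD (GGAATG), the TATA box (TATAAA), the E-box (CACGTG), the GC box (GGGCGG), the CCAAT box (CCAAT), ISRE (GAAANNGAA) and ARE (TGANNNNGC). Of these, TATAAA occurred 2 times before start 3 of SERPINB7 and 2 times, overlapping itself, before SERPINB8, 1 time before SERPINB9, and in 10.7% of all windows. CCAAT and the ARE letters each occurred 1 time before SERPINB8 and 1 time before SERPINB9, and in 32% and 35.2% of all windows. The NF-kB letters occurred 1 time before start 1 of SERPINB7 and in 5.48% of all windows. GGGCGG occurred 2 times in each of SERPINB1, SERPINB5 and SERPINB9 and in 42.6% of all windows. A match describes letters and is no evidence of binding, and the arrays do not show which start was used.

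SERPINB7 (probe set 8021623) encodes megsin, known from mesangial cells of the kidney and from the epidermis, where its loss causes a palmoplantar keratoderma. Its log2 value in H1299 was lowest with LUC, 3.98, followed by 6.63 with GFP, 6.97 with PTK7-1 and 7.93 with PTK7-2. The H2009 arrays read 4.73 with LUC, 6.35 with GFP, 6.88 with PTK7-1 and 7.54 with PTK7-2. The 4 hairpins thus stood in the same order in both lines, with the LUC arrays far below the other 6 and the PTK7-2 arrays highest. Over all genes, 0.56% had this order in both lines, a share from which nothing is read here because the gene was singled out for such values. On a linear scale the GFP array was 6.27-fold above the LUC array in H1299 and 3.08-fold above it in H2009. Relative to GFP, PTK7-1 was 1.26-fold and PTK7-2 2.46-fold higher in H1299, and 1.44-fold and 2.27-fold higher in H2009.

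Averaged over the lines, SERPINB7 stood at 4.35 with LUC, 6.49 with GFP, 6.92 with PTK7-1 and 7.73 with PTK7-2. In a fit of hairpin plus line the step from LUC to GFP was 2.14 ± 0.26 (SE, 2 arrays each), and the step from PTK7-1 to PTK7-2 was 0.81 with the same error. The step from GFP to PTK7-1 was the smallest, 0.43 with the same error, so the order of these neighbours stays unsettled. SERPINB7 was singled out for such values, so the errors serve as description and no step was tested. The lines themselves hardly differed. The mean over 4 arrays was 6.38 ± 1.69 (SD, n = 4) in H1299 and 6.37 ± 1.20 (SD, n = 4) in H2009, and this SD is mostly the hairpins' own difference.

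**Figure D1:**
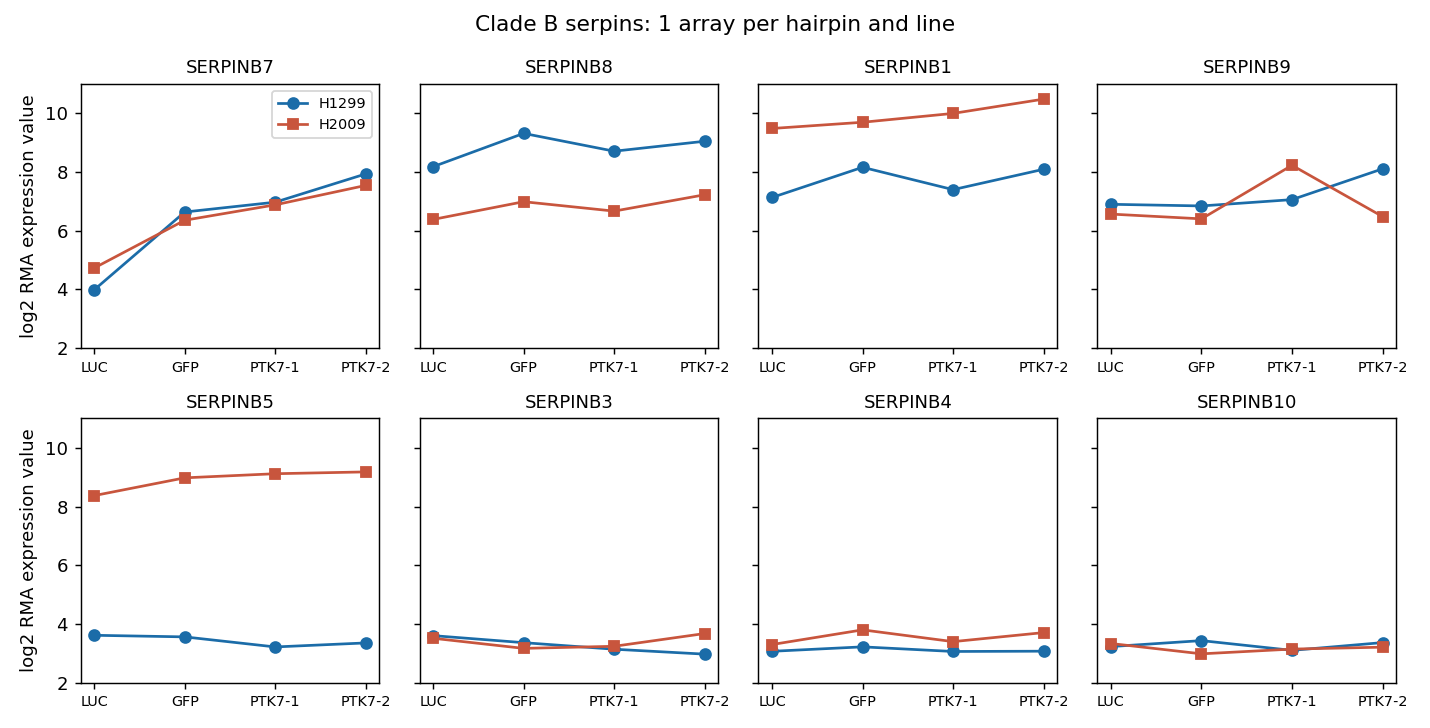
Log2 expression value of each measured clade B serpin (vertical axis) by hairpin (horizontal axis), with 1 point per array, circles for H1299 and squares for H2009, and lines joining the arrays of a cell line. SERPINB7 rises from 3.98 and 4.73 with LUC to 7.93 and 7.54 with PTK7-2, SERPINB5 is split by line, and SERPINB3, SERPINB4 and SERPINB10 stay under 4.

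The knockdown comparison of SERPINB7 therefore depended on which control was used. Under control hairpins its mean was 5.31 ± 1.87 (SD, n = 2) in H1299 and 5.54 ± 1.15 (SD, n = 2) in H2009. Under PTK7 hairpins it was 7.45 ± 0.68 (SD, n = 2) in H1299 and 7.21 ± 0.47 (SD, n = 2) in H2009. Both PTK7 arrays lay above both control arrays in each line. The same held for 4.93% of all genes, a share from which nothing is read because SERPINB7 was singled out for such values. None of the other 7 members showed this separation. The PTK7 minus control difference of SERPINB7 was 2.14 ± 0.89 (SE) in H1299, 1.67 ± 0.89 in H2009 and 1.90 ± 0.63 averaged over the lines. Without both LUC arrays the averaged difference was 0.84 ± 0.35, and without both GFP arrays it was 2.97 ± 0.35. With single arrays left out, the H1299 difference was 3.46 without GFP and 0.82 without LUC. In RNA of whole cultures, a different share of expressing cells and a different amount of RNA per cell cannot be told apart.

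Among the other members SERPINB8 and SERPINB1 also had their lowest value with LUC in both lines. SERPINB8 (probe set 8021653), an intracellular inhibitor that can bind the proprotein convertase furin, read 8.17 with LUC, 9.31 with GFP, 8.70 with PTK7-1 and 9.04 with PTK7-2 in H1299. The H2009 values were 6.38 with LUC, 6.98 with GFP, 6.66 with PTK7-1 and 7.22 with PTK7-2. LUC was lowest and PTK7-1 next lowest in each line, and GFP and PTK7-2 were close together. The GFP minus LUC difference was 0.87 ± 0.16 (SE), a 1.83-fold difference that did not pass over all genes (limma adjusted p = 1.00, unadjusted p = 0.000882).

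SERPINB1 (probe set 8123598) encodes the inhibitor of the neutrophil proteases elastase, cathepsin G and proteinase 3. Its value in H1299 was 7.13 with LUC, 8.15 with GFP, 7.39 with PTK7-1 and 8.09 with PTK7-2. The H2009 arrays read 9.47 with LUC, 9.69 with GFP, 9.99 with PTK7-1 and 10.47 with PTK7-2. GFP was the highest array in H1299 and the second lowest in H2009, so the lines shared only the place of LUC and the order of PTK7-1 below PTK7-2. The GFP minus LUC difference was 0.62 ± 0.24 (SE; limma adjusted p = 1.00). LUC was lowest in both lines for 3 of 8 members, SERPINB7 included, and for 5.95% of all genes. Among genes whose values span at least 1 log2 unit over the 8 arrays these were 3 of 5 members and 8.21% of genes. SERPINB7 was singled out for such values, so its place in both counts was fixed. The members that the span leaves out, SERPINB3, SERPINB4 and SERPINB10, did not have LUC lowest in both lines. The LUC pattern was noticed in these values and has no test, and nothing is read from the shares. In the limma comparison of GFP with LUC, 0 of the 7 members passed an adjusted p of 0.05, as did 0% of all genes, and 2 members, SERPINB1 and SERPINB8, had an unadjusted p under 0.05, as did 672 of the 18404 genes.

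SERPINB9 (probe set 8123609) encodes an inhibitor of granzyme B, the protease with which cytotoxic lymphocytes kill their targets. In H1299 it read 6.89 with LUC, 6.84 with GFP, 7.05 with PTK7-1 and 8.10 with PTK7-2. The H2009 values were 6.56 with LUC, 6.40 with GFP, 8.22 with PTK7-1 and 6.48 with PTK7-2. A single array stood above the others in each line, and it carried a different PTK7 hairpin in each. The averaged PTK7 minus control difference was 0.79 ± 0.39 (SE; limma adjusted p = 0.576). In H2009 it was 0.87 ± 0.55, and -0.0028 without the PTK7-1 array. In H1299 it was 0.71 ± 0.55, and 0.19 without the PTK7-2 array. The averaged difference was 0.84 without both LUC arrays and 0.74 without both GFP arrays, so the choice of control moved it little.

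Over the family, PTK7 hairpins gave no call among the 7 other members, and SERPINB7 was described without a test. In limma with a mean per group, 0 of the 7 other members passed in the average over the lines, where 0% of all genes did, with 0 members and 1819 of the 18404 genes at an unadjusted p under 0.05. With the hairpin as a block 149 genes passed in this average, and again 0 of the 7 members. That model leaves differences between hairpins out of the error, so its calls concern these hairpins and not PTK7 knockdown in general. In H1299 alone 0 of 7 passed against 0.00543% of all genes, with 0 members and 1376 genes at an unadjusted p under 0.05. In H2009 alone 0 of 7 passed against 0% of all genes, and SERPINB5 was the 1 member under 0.05 unadjusted, beside 1468 genes. When the PTK7 effects of the lines were tested against each other, limma called 0 of 7 members and 0% of all genes, and SERPINB5 was again the 1 member under 0.05 unadjusted, beside 951 genes. The median averaged difference of the 7 members was 0.09, beside 0.02 for all genes. For SERPINB8 the sign itself followed the control, at 0.19 ± 0.28 (SE) with both, -0.24 ± 0.22 without both LUC arrays and 0.63 ± 0.22 without both GFP arrays. For SERPINB1 the corresponding values were 0.37 ± 0.26, 0.07 ± 0.27 and 0.68 ± 0.27.

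**Figure D2:**
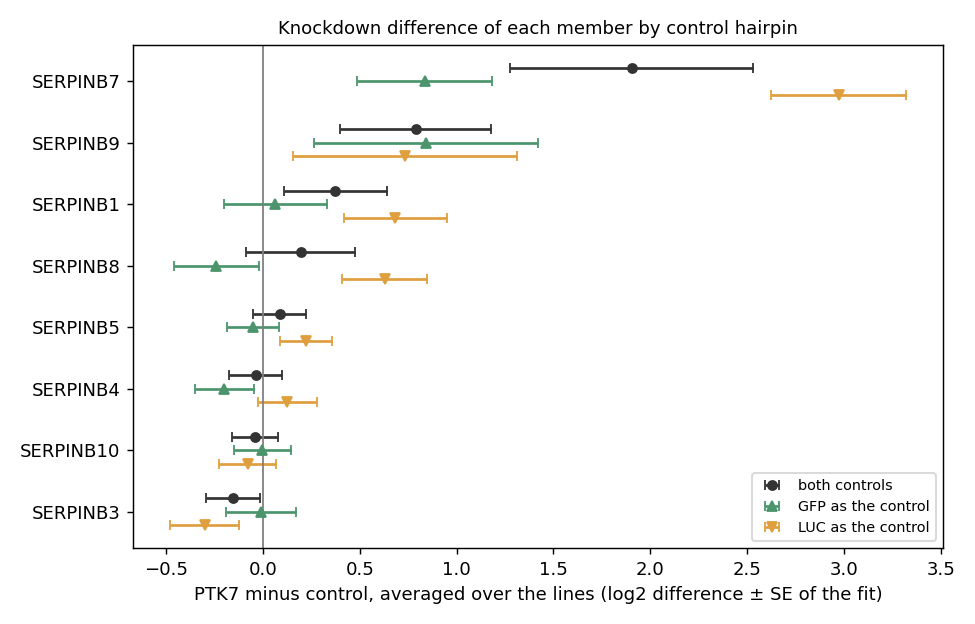
Difference of PTK7 from control hairpins, mean of both lines (horizontal axis, log2, bars ± SE of the fit) for each measured member, with both controls (circles), with GFP alone as the control (upward triangles) and with LUC alone (downward triangles). SERPINB7 moves from 0.84 with GFP to 2.97 with LUC, and SERPINB8 from -0.24 to 0.63.

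Between the PTK7 hairpins, 0 of the 7 members passed in the fit of hairpin plus line, where 3.73% of all genes did. SERPINB8 was lower with PTK7-1 than with PTK7-2 by 0.45 ± 0.16 (SE; log2 difference -0.45, limma adjusted p = 0.198) and SERPINB1 by 0.59 ± 0.24 (-0.59, adjusted p = 0.249), and these 2 members had an unadjusted p under 0.05, as did 3364 of the 18404 genes. SERPINB7 stood at -0.81 ± 0.26 in the same comparison. All 3 were lower with PTK7-1 in each line.

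The lines differed in other members of the family than SERPINB7. SERPINB5 (probe set 8021584) encodes maspin, which lacks protease inhibition and is known as a tumour suppressor of epithelial cells. In H1299 its values ran from 3.22 to 3.62 over the 4 arrays, and in H2009 from 8.37 to 9.18. The 2 ranges were far apart, and the value in H1299 was dim with every hairpin. Under control hairpins it was 33.9-fold lower in H1299, with a log2 difference of -5.08 ± 0.20 (SE; limma adjusted p = 7.13e-06). Under PTK7 hairpins, from the other 4 arrays but with an error estimated over all 8, the difference was -5.86 ± 0.20 (adjusted p = 3.98e-06). A signal near the floor in H1299 compresses such folds. The difference went with that of epithelial genes. In the fixed list of 6 epithelial markers 5 were lower in H1299 under control hairpins, where 24.8% of all genes passed in either direction. Among them were EPCAM at -7.85 ± 0.13 and CDH1, the epithelial cadherin, at -7.14 ± 0.13. The part of epithelial identity in the SERPINB5 difference was not tested.

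Within H2009 SERPINB5 was 8.37 with LUC, 8.98 with GFP, 9.12 with PTK7-1 and 9.18 with PTK7-2, the same order of hairpins as SERPINB7. In H1299, at 3.62, 3.56, 3.22 and 3.36, PTK7-1 was lowest and LUC highest. The PTK7 minus control difference was 0.47 ± 0.20 (SE) in H2009 and -0.30 ± 0.20 in H1299, and neither passed (limma adjusted p = 0.620 and 0.860). Nor did the difference between them, at -0.77 ± 0.28 (adjusted p = 0.922).

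SERPINB8 was higher and SERPINB1 lower in H1299 than in H2009. Under control hairpins SERPINB8 was 4.17-fold higher in H1299, with a log2 difference of 2.06 ± 0.40 (SE; limma adjusted p = 0.00892), and under PTK7 hairpins the difference was 1.93 ± 0.40 (adjusted p = 0.0120). The lowest H1299 array, 8.17, lay above the highest H2009 array, 7.22. SERPINB1 was 3.84-fold lower in H1299 under control hairpins, at -1.94 ± 0.37 (adjusted p = 0.00890), and the difference under PTK7 hairpins was -2.49 ± 0.37 (adjusted p = 0.00323). Its highest H1299 array, 8.15, lay below the lowest H2009 array, 9.47. Under control hairpins the call for SERPINB1 was lost without the GFP array of H2009 (adjusted p = 0.0654) and that for SERPINB8 without the LUC array of H2009 (0.0721). Under PTK7 hairpins the call for SERPINB8 was lost without the PTK7-1 array of H2009 (0.0648).

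In all, 3 of the 7 members differed between the lines under control hairpins, 1 higher and 2 lower in H1299, against 24.8% of all genes. The same 3, SERPINB1, SERPINB5 and SERPINB8, passed under PTK7 hairpins, against 24.5%. All 4 arrays of one line lay beyond all 4 of the other for SERPINB1, SERPINB4, SERPINB5 and SERPINB8, 4 of 8 measured members, and for 35.2% of all genes. For SERPINB9 the difference was 0.39 ± 0.55 (SE) under control hairpins and did not pass. This error pools the spread of all 4 groups. The SERPINB9 SD (n = 2) was 0.04 in H1299 and 0.11 in H2009 under control hairpins, and 0.74 and 1.23 under PTK7 hairpins. Both H1299 control arrays (6.84 and 6.89) lay above both H2009 control arrays (6.40 and 6.56).

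SERPINB3 and SERPINB4, near-identical copies known as the squamous cell carcinoma antigens, and SERPINB10, a nuclear serpin of blood cell precursors, were dim on every array. Their values ran from 2.98 to 3.68, from 3.07 to 3.80 and from 2.99 to 3.44, below the lower quartile of all genes, which lay between 4.26 and 4.44 on the 8 arrays. None of them passed in any comparison, where the share of all genes that passed ran from 0% (GFP minus LUC) to 24.8% (lines under control hairpins). SERPINB4 was higher in all 4 H2009 arrays than in the H1299 arrays, at -0.40 ± 0.19 (SE; limma adjusted p = 0.188) for H1299 minus H2009 under control hairpins and -0.48 ± 0.19 (adjusted p = 0.120) under PTK7 hairpins. Signals of SERPINB3 and SERPINB4 may be shared between their probe sets because the genes are so alike. The clade B genes outside the list, SERPINB11, SERPINB12 and SERPINB13, were as dim, and 0 of these 3 passed in any of the 8 comparisons, beside the same shares of all genes.

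Along chromosome 18 the clade B genes are ordered SERPINB5, SERPINB12, SERPINB13, SERPINB4, SERPINB3, SERPINB11, SERPINB7, SERPINB2, SERPINB10 and SERPINB8 in the RefSeq gene table. SERPINB7 thus lies between genes without a clear signal, SERPINB11 on one side and, beyond SERPINB2, SERPINB10 on the other. Of 12 measured genes around the cluster, 3 were higher and 2 lower in H1299 under control hairpins, against 24.8% of all genes in either direction. KDSR, an enzyme of sphingolipid synthesis, stood at 1.51 ± 0.24 (SE; limma adjusted p = 0.00397). CDH7, a cadherin, stood at -1.61 ± 0.20, but at -0.25 ± 0.20 under PTK7 hairpins, where it did not pass (adjusted p = 0.441). Of the 12, 0 passed between PTK7 and control hairpins or between GFP and LUC, where at most 0.00543% of all genes did. On chromosome 6, where SERPINB1, SERPINB9 and SERPINB6 adjoin, 7 of 11 measured surrounding genes were higher in H1299 under control hairpins and 0 were lower, with a median of 0.77 beside 0.06 for all genes, 24.8% of which passed. Under PTK7 hairpins 5 were higher and 1 lower, with a median of 0.52, and 24.5% of all genes passed. SERPINB1 stood at -1.94 under control hairpins.

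**Figure D3:**
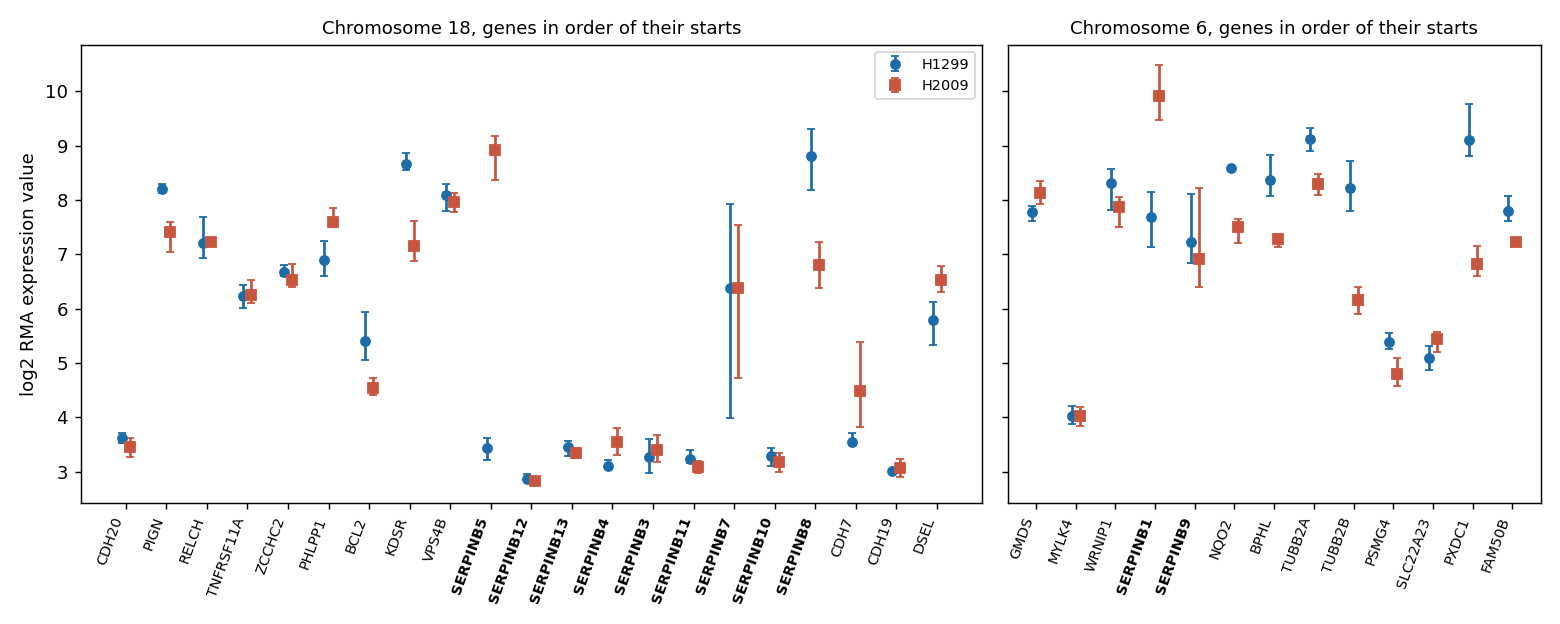
Log2 expression value (vertical axis) of measured genes in and around the clade B clusters of chromosome 18 and chromosome 6, placed in the order of their starts without distances; symbols give the mean of the 4 arrays of a line, circles for H1299 and squares for H2009, bars run from the lowest to the highest array, and clade B names are bold. SERPINB5 and SERPINB8 part the lines in opposite directions, the SERPINB7 bars are the longest in the chromosome 18 panel, from 3.98 to 7.93 in H1299, and heights of different genes are not comparable because each probe set binds differently.

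Genes whose values followed SERPINB7 were taken from outside the family by correlation. Over the 8 arrays, among 6233 genes with a range of at least 1, the highest Pearson r was that of WBP2, a transcriptional coactivator that binds YAP, at 0.985, before HAUS6 (0.949), POLE3 (0.928), GMFB (0.916) and SETD7 (0.909). After each line's mean was subtracted, among 9023 genes with a range of at least 0.5, the order was WBP2 (0.992), COPS8 (0.988), FAM20B (0.988), RAP1GAP2 (0.974) and ITGA3, an integrin subunit that binds laminins (0.973). These values describe 8 arrays that share 4 hairpins and carry no p-value. The 9 genes had lower values with LUC than with GFP in both lines, which the choice by likeness to SERPINB7 largely fixes. WBP2 read 8.34 with LUC, 9.31 with GFP, 9.52 with PTK7-1 and 9.87 with PTK7-2 in H1299, and 8.87, 9.28, 9.58 and 9.75 in H2009, a narrower span than that of SERPINB7. Within the family the correlation of the line-centred values with SERPINB7 was 0.802 for SERPINB8, 0.800 for SERPINB1, 0.410 for SERPINB9, 0.354 for SERPINB4, 0.254 for SERPINB5, -0.037 for SERPINB10 and -0.558 for SERPINB3, of which SERPINB3, SERPINB4 and SERPINB10 are dim.

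**Figure D4:**
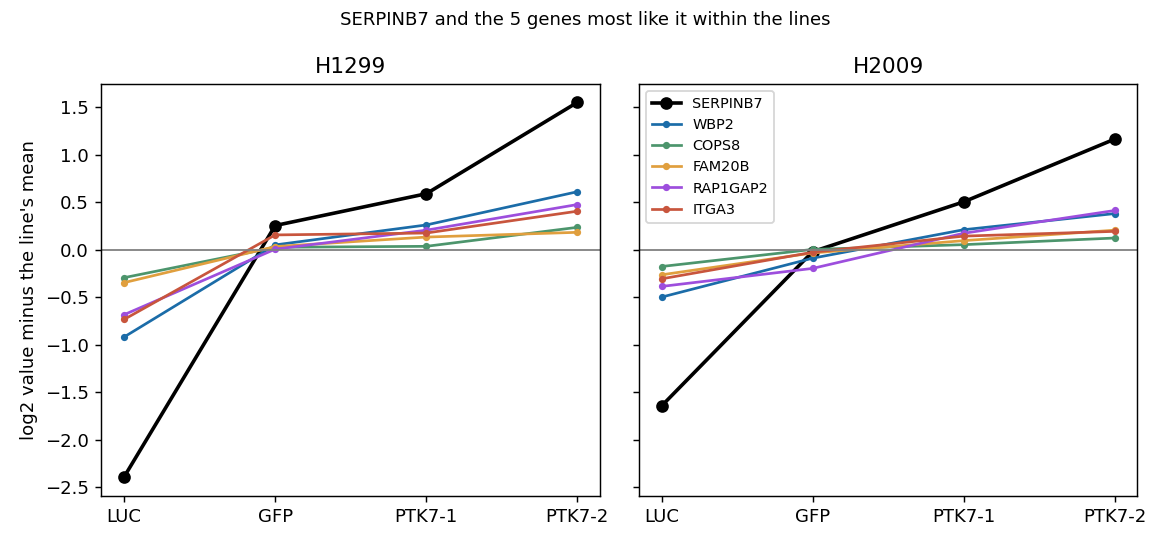
Log2 value minus the mean of the line's 4 arrays (vertical axis) by hairpin (horizontal axis) in H1299 and H2009, for SERPINB7 (black) and the 5 genes with the highest Pearson r after line means were subtracted. LUC is the lowest point of each gene in both lines, and SERPINB7 spans the widest range.

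The proteases that clade B serpins bind or control were listed separately. Of 30 measured, 0 were higher and 10 lower in H1299 than in H2009 under control hairpins, where 24.8% of all genes passed, 2296 higher and 2270 lower. The membrane serine proteases ST14 (matriptase) and PRSS8 (prostasin) stood at -5.05 ± 0.18 and -4.59 ± 0.21 (SE), tissue plasminogen activator PLAT at -2.89 ± 0.19, and the lysosomal cathepsin CTSS at -2.16 ± 0.29. Between PTK7 and control hairpins, and between GFP and LUC, 0 of the 30 passed in limma, where at most 0.00543% of all genes did. Nothing is read from this count. Among 17 measured serpins of other clades 0 were higher and 2 lower in H1299 under control hairpins, where 24.8% of all genes passed in either direction. These were SERPINE2 at -3.10 ± 0.30 and SERPINA1 at -3.15 ± 0.80. SERPINA1 did not pass under PTK7 hairpins, at -2.45 ± 0.80 (limma adjusted p = 0.0653). Its H1299 control arrays stood apart, at 6.39 with GFP and 4.30 with LUC. Between the PTK7 hairpins 2 of the 17 passed, against 3.73% of all genes, both higher with PTK7-1, namely the collagen chaperone SERPINH1 at 2.06 ± 0.20 and the neuronal serpin SERPINI1 at 1.78 ± 0.18 (limma adjusted p = 0.00634 for both). In the urokinase system, which SERPINB2 inhibits, 1 of 4 measured genes was higher and 1 lower in H1299 under control hairpins, where 24.8% of all genes passed. The receptor gene PLAUR was higher, at 1.27 ± 0.25, and PLAT lower. Between PTK7 and control hairpins 0 of the 4 passed, where at most 0.00543% of all genes did.

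Markers of the cells in which these serpins are best known were listed as well. Over 11 measured keratinocyte and squamous genes the list mean ran from 4.49 to 4.65 in H1299 and from 4.99 to 5.20 in H2009. Of the 11, 0 passed between PTK7 and control hairpins or between GFP and LUC, where at most 0.00543% of all genes did. KRT13 was the 1 member that differed between the lines under control hairpins, at -4.70 ± 0.14 (SE), where 24.8% of all genes passed. Under PTK7 hairpins KRT13 passed again, and so did KRT10, at -0.42 ± 0.13 (limma adjusted p = 0.0489), beside 24.5% of all genes. Over 7 leukocyte markers the mean ran from 3.95 to 4.15 in H1299 and from 3.88 to 4.07 in H2009, with PTPRC, which marks all leukocytes, between 2.78 and 3.01 on every array. Over 5 fibroblast markers it ran from 4.22 to 4.43 in H1299 and from 4.41 to 4.51 in H2009, and over 4 endothelial markers from 3.64 to 4.04 and from 3.72 to 3.89. In these 3 lists 0 genes passed between PTK7 and control hairpins or between GFP and LUC, again beside at most 0.00543% of all genes. Between the lines under control hairpins only ITGAM (higher in H1299) and COL1A1 (lower) passed, beside 24.8% of all genes. Their part in the serpin values was not tested.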

How the data were processed

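The authors deposited log2 values, 1 for each probe set and array; the submitters' processing notes name RMA and R 2.14.0, and the genome build is not given in the sources used here. RMA compresses differences of dim genes, detection calls were not used, and the number of arrays limits the precision. The files held 32321 probe sets. Of 19158 with a single gene symbol, 19128 matched the RefSeq gene table by gene ID, and the brightest probe set per gene left 18404 genes.

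For comparisons of groups, limma 3.58.1 (R 4.3.3) fitted 4 group means to the 8 arrays, with moderated variances and p-values adjusted by Benjamini-Hochberg across all genes (threshold 0.05). Hairpins were compared in an additive model of hairpin and line. Errors marked SE are those of the fit. Deviations from the group means were correlated between the lines for arrays sharing a hairpin (r = 0.230 for control and 0.407 for PTK7 hairpins; the labels state that hairpins were shared), so a second model took the hairpin as a block. For PTK7 against control that model leaves differences between hairpins out of the error, so its calls concern these hairpins alone. The members and lists were chosen with earlier results of these data known. All measured members are described; list genes are named among those past the threshold, by smallest p, and genes alike SERPINB7 by correlation. The fit was run on simulated data with independent noise on each array, so that run does not cover the correlation between arrays sharing a hairpin. Alternatives were the block, omission of each array, a trended prior, the mean over probe sets of a gene, omission of the dimmest 40%, median centring and quantile normalization; leaving out both arrays of a control hairpin, and the motif search, were added after seeing the data. Promoter windows come from RefSeq (GRCh38.p14). Figures were drawn with matplotlib 3.10.9.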

Additional observations from a re-analysis of the deposited data

How the results depend on the processing

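With the hairpin as a replicate block, the counts of called members were as reported in each comparison: 3 between the lines under control hairpins, 3 under PTK7 hairpins and 0 elsewhere. Quantile normalization, median centring, removal of dim genes, the mean of probe sets, a trended prior and the removal of any single array left each count within 1.5 times of the reported one; without single arrays both counts between the lines ran from 2 to 3. Without both GFP arrays the count between the lines under control hairpins fell to 1, SERPINB5, with SERPINB1 at -2.35 (limma adjusted p = 0.0562) and SERPINB8 at 1.80 (0.0669), while calls over all genes fell from 4566 to 940. Without both LUC arrays SERPINB1 stood at -1.53 (adjusted p = 0.146). Of 984 alternative values of single members, 72 had another sign than the reported value, and in 0 of them was either value called. SERPINB7 held 126 of these values and 9 of the changes of sign, and could not count as called because it has no p-value. For SERPINB7 the line difference under control hairpins, -0.23, was -1.55 without the GFP array of H1299 and 1.09 without its LUC array. Each group had 2 arrays, so a group reduced to 1 array was assumed to vary like the others. For SERPINB3, SERPINB4 and SERPINB10 the low signal limits what a difference can show.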
